A study of Rattus norvegicus with 8 samples.

Results

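Collagen genes of the rat neural lobe (neurohypophysis or posterior pituitary) are described here together with the genes for the enzymes and the chaperone that act on newly made collagen chains. The set held 50 genes of 33294 listed, 43 collagen chain genes and 7 genes for the collagen chaperone and the prolyl and lysyl hydroxylases. Members were taken by symbol, as genes named Col, a number, a and a number (1 collagen symbol lies outside the set) plus Serpinh1, P4ha1, P4ha2, P4ha3, Plod1, Plod2 and Plod3. A member also needed a depth-normalized count of 10 or more in 4 or more of the 8 libraries, which all 50 candidates had. Just inside that limit were Col26a1 and Col6a4, with exactly 4 libraries each, and no candidate fell outside it. Those 4 libraries were the 35-day ones in both cases, so these genes entered through the age at which they were higher and had to differ. Their values are given below with no test, and the counts and medians over all members, which hold them, are descriptions.

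The study compared the lobe of rats aged 125 days (n = 4 libraries) with that of rats aged 35 days (n = 4), all of them male and of the Sprague Dawley strain, the younger group being the one that the labels call the control, to ask how expression in the lobe changes with age. Rats of both ages were perfused with PBS before the lobe was frozen, and poly(A) RNA was sequenced. The labels number the samples without saying that each came from 1 animal, and the p-values below therefore cover only the variation among these samples, which may be technical.

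Collagen chains fold by threes into a triple helix in the endoplasmic reticulum, where prolyl hydroxylases stabilize the helix, lysyl hydroxylases prepare cross-links and the chaperone HSP47 (Serpinh1) binds the folded procollagen. After secretion, fibril-forming collagens assemble into striated fibrils, collagen IV into the sheets of basement membranes and collagen VI into beaded filaments beside them. In the neural lobe, fenestrated capillaries lie in perivascular spaces bounded by basement membranes, and these spaces hold collagen fibrils, fibroblasts and pericytes. Axon terminals and pituicytes, the resident glia, end on the outer basement membrane.

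Each library held between 28429133 and 58696254 recovered reads. Pituicyte markers were present in every library, with a summed depth-normalized count of 27683 to 40398 at 125 days and 42001 to 50621 at 35 days. Intermediate lobe genes, which are not of the neural lobe, had larger sums, of 3615990 to 5345610 at 125 days and 2016420 to 3764260 at 35 days. All genes together summed to between 3.31e+07 and 3.74e+07 per library. Anterior lobe hormone and receptor genes, which do not belong to the neural lobe, summed to 6528 to 50197 at 125 days and to 24290.5 to 1394300 at 35 days, with the highest value in 35-day replicate 3. The same library stood apart on the second principal component (-59.7, against 21.8 to 29.3 in the other 35-day libraries). Among the 125-day libraries, replicate 2 had the lowest anterior lobe sum and the highest sums of endothelial and mural markers. Results are therefore also given without 35-day replicate 3 and without 125-day replicate 2.

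Among the collagen genes, calls ran almost entirely towards lower values in the older lobes. At 125 days 20 of 50 members were lower and 1, Col2a1, was higher at a limma adjusted p below 0.05, and 29 did not pass. Col26a1 and Col6a4 are among the 20. Over all 17919 genes tested, 8.87% were called lower and 8.85% higher. The log2 change, 125 minus 35 days, was negative in 43 of 50 members, with a median of -0.65 against 0.01 over all genes tested. Of the members called lower, 14 were at least 2-fold lower, and 15 of the 20 kept their call whichever 1 library was left out. Ages did not overlap in 18 members, 17 lower and 1 higher, against 11.5% lower and 13.4% higher of all genes. Col26a1 and Col6a4 are among the 14, the 15 and the 17, and their lack of overlap was fixed by the filter. Without 35-day replicate 3 the calls were 27 lower and 1 higher, and of all genes tested 14.8% were then lower and 15.9% higher. Without 125-day replicate 2 they were 26 and 1, against 8.52% and 7.42% of all genes, and without both libraries 33 and 1, against 17.0% and 17.2%. Leaving out any other library gave 15 to 18 lower and 1 higher, against 5.76% to 8.03% of all genes lower. With values scaled to equal library totals, 21 members were lower and 1 higher, and of all genes tested 1997 were lower and 1179 higher, against 1589 and 1585 as deposited. In bulk tissue, fewer cells of a type and less RNA per cell cannot be told apart.

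**Figure D1:**
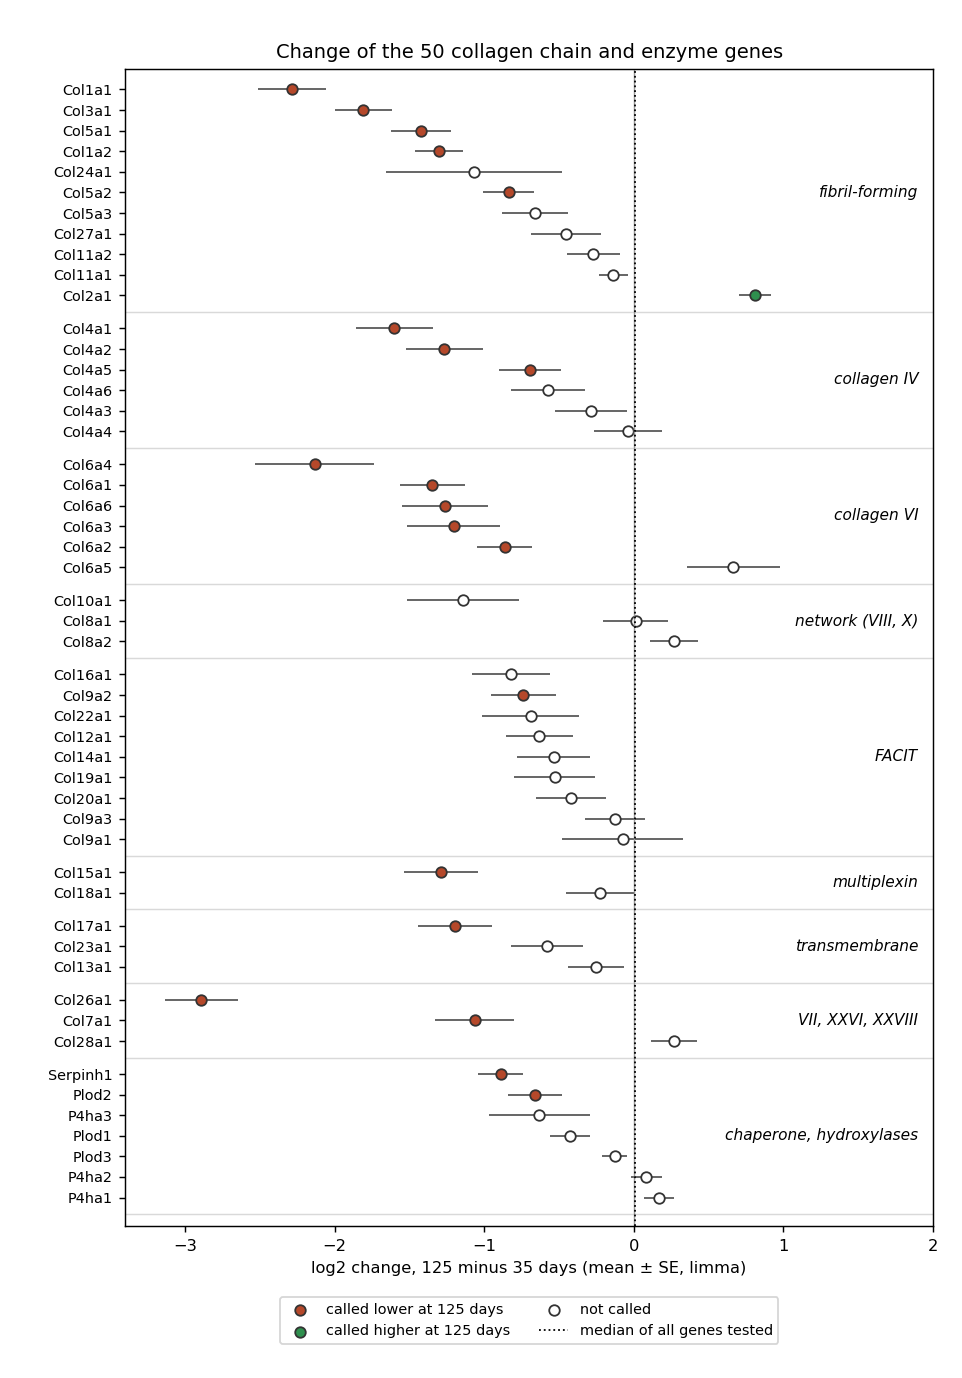
Log2 change in depth-normalized count, 125 minus 35 days, for the 50 members by class, with points at the limma estimate and bars of 1 SE; filled points passed adjusted p below 0.05 and the dotted line is the median of all genes tested (0.01). Col26a1 (-2.89) and Col1a1 (-2.29) lie farthest to the left, and Col2a1 (0.81) is the filled point to the right of the line. Col26a1 and Col6a4 entered only through the 35-day libraries, so their filled points are not read as tests.

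Collagen chains together took a smaller share of the reads at the older age. Chains made up 0.196%, 0.366%, 0.244% and 0.236% of recovered reads in 125-day replicates 1 to 4, against 0.480%, 0.672%, 0.408% and 0.626% in 35-day replicates 1 to 4. The ages did not overlap, and replicate 2 was the highest library of each age. Values of single genes below are depth-normalized counts, given for replicates 1 to 4 of each age in that order, and library 1 to 4 of an age is its replicate of that number.

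Of the fibril-forming collagens 5 of 11 fell and 1 rose, against 8.87% lower and 8.85% higher of all genes. The counts were 6 and 1 without 35-day replicate 3, 7 and 1 without 125-day replicate 2, and 5 and 1 without any other library. The median log2 change of the 11 was -0.84. Col1a1, the main chain of collagen I, had 3292, 5419, 3426 and 3807 in the 125-day libraries, against 12945, 25111, 17155 and 23599 in the 35-day libraries (adjusted p = 1.59e-04 for a log2 change of -2.29, SE 0.23). Its partner chain Col1a2 had 5723, 8245, 6069.6 and 6308 at 125 days, against 12944, 19531, 14582 and 18193 at 35 days (adjusted p = 5.30e-04 for a log2 change of -1.30, SE 0.16). Col3a1, whose product forms fine fibrils with collagen I around vessels, had 5099, 8877, 5839 and 6029.6 at 125 days, against 18589.7, 27721, 19212 and 24167 at 35 days (adjusted p = 2.03e-04 for a log2 change of -1.81, SE 0.19). In all of these genes every 125-day library lay below every 35-day library, and replicate 2 was the highest of the older libraries. Of 14 fibroblast markers 9 were called lower, a count given with its limits among the marker lists below, as are the bone genes. In the RefSeq annotation Col1a1 overlaps Sgca, and the strand setting of the counting is not known. Whether exons overlap is not known here either, so reads of such partners may not be told apart. Collagen V initiates and thins collagen I fibrils, and both of its main chains fell. Col5a1 had 869.5, 1398, 1078 and 1046 at 125 days, against 2366, 3584, 2227 and 3743 at 35 days (adjusted p = 0.00114 for a log2 change of -1.42, SE 0.20). Col5a2 had 1761, 2734, 1949 and 1811 at 125 days, against 3490.1, 4759, 2977 and 3504 at 35 days (adjusted p = 0.00899 for a log2 change of -0.84, SE 0.17). Col5a3, a less common collagen V chain, had 631, 1235, 789 and 815 at 125 days, against 1029.8, 1544, 1157 and 1705 at 35 days (adjusted p = 0.0639 for a log2 change of -0.66, SE 0.22). It passed only without 125-day library 2 or 35-day library 3 (adjusted p from 0.0173 to 0.0348) among the fits that left out 1 library. With all libraries kept it passed only with library weights, in DESeq2 and with the replicate block. Col27a1, of cartilage fibrils, had 671, 1488, 938 and 818 at 125 days, against 995, 1345, 1645 and 1231 at 35 days (adjusted p = 0.218 for a log2 change of -0.46, SE 0.23). It passed without 125-day library 2 (adjusted p = 0.0359). In Col5a3 and Col27a1 the ages overlapped, because 125-day replicate 2 reached the 35-day range.

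For the collagen I chain Col1a2, the RefSeq promoter window (250 bases before to 50 after the annotated start, GRCr8, chr4:33518307-33518606, plus strand) is shown because both chains of collagen I fell. Capitals mark an inverted CCAAT (letters ATTGG, first base 221 before the start) and a TATAAA (first base 170 before the start), the matches of the searched motifs in this window.
Col1a2: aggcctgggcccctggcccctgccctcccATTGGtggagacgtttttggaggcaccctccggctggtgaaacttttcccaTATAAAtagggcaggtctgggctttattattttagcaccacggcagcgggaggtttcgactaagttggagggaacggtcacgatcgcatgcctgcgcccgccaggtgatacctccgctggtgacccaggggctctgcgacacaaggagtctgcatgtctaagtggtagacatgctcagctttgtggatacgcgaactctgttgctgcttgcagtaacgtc

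Col2a1, the main collagen of cartilage, was the member that rose, with 1486, 1261, 1329 and 1231 at 125 days, against 654, 732, 848 and 799 at 35 days (adjusted p = 9.11e-04 for a log2 change of 0.81, SE 0.11). Each older library was above each younger one, and the call held whichever 1 library was left out. Col11a1 and Col11a2, minor chains of the same cartilage fibrils, did not pass. Their means were 1880.2 ± 146 at 125 days, against 2070.1 ± 198 at 35 days for Col11a1 and 1115 ± 221 at 125 days, against 1349 ± 277 at 35 days for Col11a2 (SD, n = 4 each), with log2 changes of -0.14, SE 0.10 and -0.27, SE 0.17. Col24a1, described in developing bone in mice, had 138, 105, 246 and 179 at 125 days, against 112, 332, 1180.1 and 283 at 35 days (adjusted p = 0.248 for a log2 change of -1.07, SE 0.59). Its high 35-day value came from replicate 3. When the model also held the mean log2 level of the anterior lobe markers, the covariate named below, its sign turned (log2 change 0.54, adjusted p = 0.23).

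**Figure D2:**
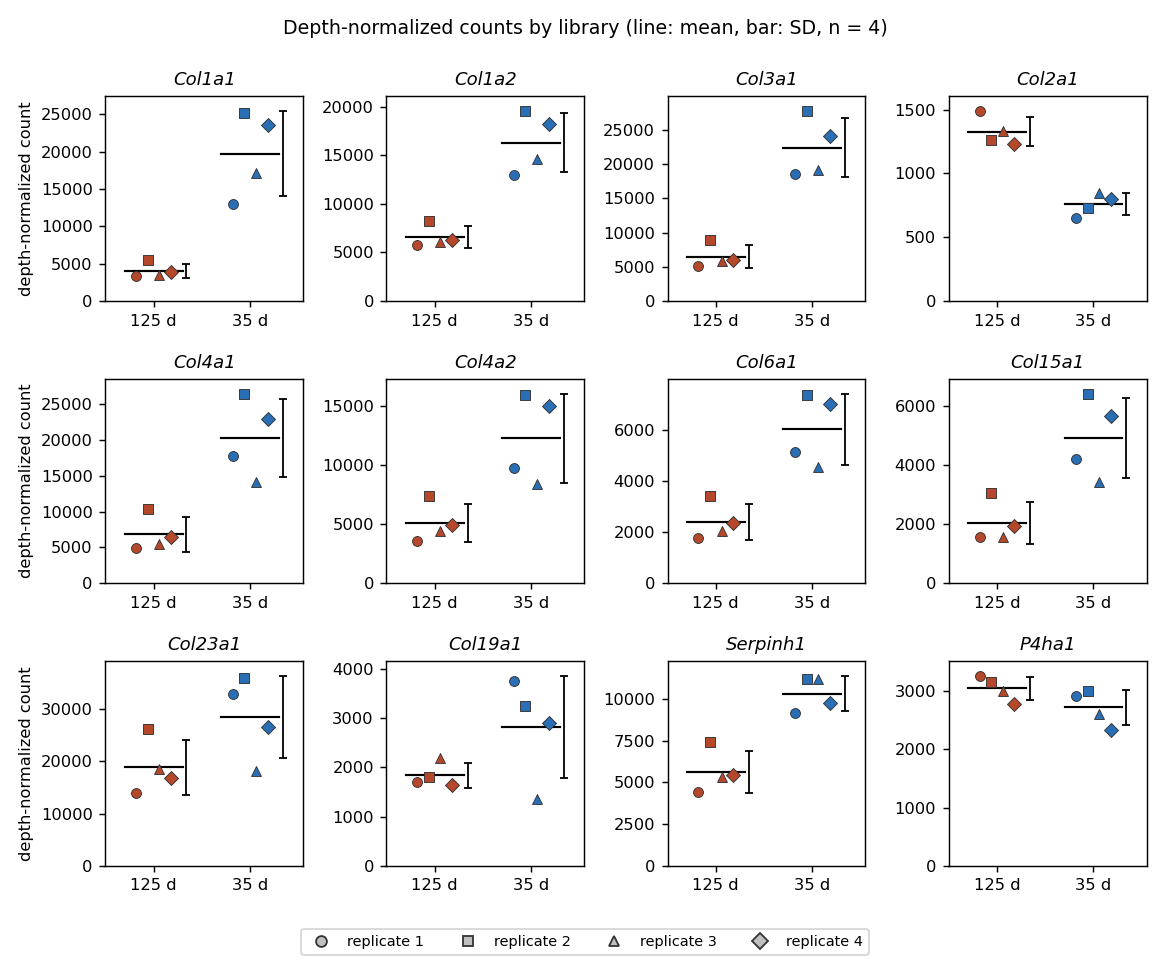
Depth-normalized counts of 12 members in each library, 125 days on the left and 35 days on the right, with the symbol giving the replicate, the line the mean and the bar the SD (n = 4 per age). Col1a1, Col1a2, Col3a1, Col4a1, Col4a2, Col6a1, Col15a1 and Serpinh1 do not overlap between ages and are lower at 125 days, Col2a1 does not overlap and is higher, and the ages overlap in Col23a1, Col19a1 and P4ha1.

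Of 6 collagen IV chains Col4a1, Col4a2 and Col4a5 fell, which makes 3 lower, against 8.87% of all genes. The count was 4 without 35-day replicate 3 or 125-day replicate 2 and 2 without any other library. The median log2 change of the 6 was -0.63. Col4a1, present in nearly all basement membranes, had 4858, 10420.1, 5489.6 and 6461 at 125 days, against 17745, 26408, 14147 and 22851 at 35 days (adjusted p = 0.00238 for a log2 change of -1.60, SE 0.25). Col4a2, which joins it in the same trimer, had 3605, 7398, 4453 and 4968 at 125 days, against 9734, 15955, 8442 and 15056 at 35 days (adjusted p = 0.00805 for a log2 change of -1.27, SE 0.26). In neither gene did the ages overlap, and 35-day replicate 3 was the lowest of the younger libraries. Col4a5 had 3265, 6081, 3791 and 3946 at 125 days, against 6528, 8578, 5039.8 and 7246 at 35 days (adjusted p = 0.0442 for a log2 change of -0.70, SE 0.21), with overlap through 125-day replicate 2 and a call lost without 125-day library 1, 3 or 4 or 35-day library 1, 2 or 4 (adjusted p from 0.0855 to 0.127), in edgeR on recovered reads (log2 change -0.68, adjusted p = 0.053), with no filter on low values (adjusted p = 0.0507) and with no intensity trend (adjusted p = 0.0709). Its partner Col4a6 had 1348, 2826, 1841 and 1679 at 125 days, against 2992, 3705, 1862 and 2787 at 35 days (adjusted p = 0.143 for a log2 change of -0.57, SE 0.25). It passed without 125-day library 2 or 35-day library 3 (adjusted p from 0.0223 to 0.0431). With all libraries kept it passed only with library weights and with the covariate. Col4a3 and Col4a4, known from the kidney filter, did not pass. Col4a3 had 692, 1512, 905 and 945 at 125 days, against 1139, 1569.7, 871 and 1276 at 35 days (-0.29, SE 0.24 for the log2 change), and Col4a4 averaged 145 ± 28.4 at 125 days, against 151 ± 39.2 at 35 days (-0.04, SE 0.23).

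Collagen IV genes lie in head-to-head pairs, and the windows of Col4a1 and Col4a2 are shown because the genes start 77 bases apart on opposite strands and fell together. Both are RefSeq windows of GRCr8, Col4a1 at chr16:84885347-84885646 on the plus strand and Col4a2 at chr16:84885471-84885770 on the minus strand. Capitals mark the 176 bases that the windows share, read on opposite strands.
Col4a1: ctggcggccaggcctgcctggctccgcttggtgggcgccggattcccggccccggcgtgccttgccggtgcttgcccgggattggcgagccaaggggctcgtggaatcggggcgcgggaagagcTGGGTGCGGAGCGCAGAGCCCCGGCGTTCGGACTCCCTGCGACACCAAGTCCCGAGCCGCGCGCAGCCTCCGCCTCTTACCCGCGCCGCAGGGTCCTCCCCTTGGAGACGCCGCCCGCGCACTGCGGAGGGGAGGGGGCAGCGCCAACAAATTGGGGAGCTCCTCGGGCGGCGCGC
Col4a2: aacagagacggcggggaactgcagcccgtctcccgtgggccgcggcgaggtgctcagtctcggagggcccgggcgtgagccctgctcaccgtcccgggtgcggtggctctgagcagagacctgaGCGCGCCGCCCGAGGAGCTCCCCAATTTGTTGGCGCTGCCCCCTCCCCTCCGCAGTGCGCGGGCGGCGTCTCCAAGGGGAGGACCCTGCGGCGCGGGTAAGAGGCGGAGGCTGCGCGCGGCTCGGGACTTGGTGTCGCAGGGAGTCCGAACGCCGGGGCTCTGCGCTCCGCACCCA
The shared stretch holds a CCAAT on the strand of Col4a2 (first base 105 before its start) and a GGGCGG on each strand. The starts of Col4a3 and Col4a4 are 413 bases apart with 88 shared window bases, and those of Col4a5 and Col4a6 are 1415 bases apart with 0 shared. Windows were matched by symbol for 42 of 50 members, all but Col1a1, Col2a1, Col3a1, Col6a2, Col9a3, Col12a1, Col14a1 and Col22a1. With both strands searched and no motif containing another, CCAAT was in 11 of 42 members (26.2%) against 39.6% of 27457 genes with a window, TATAAA in 4 (9.52%) against 15.3%, and GGGCGG, the GC box, in 26 (61.9%) against 36.0%. These are matches of letters in a window and say nothing of binding.

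Collagen VI links basement membranes to the fibrils around them, and Col6a1, Col6a2, Col6a3 and Col6a6 fell, as they also did without 35-day replicate 3 and without 125-day replicate 2. Col6a1 had 1769.5, 3396, 2040.0 and 2352 at 125 days, against 5136, 7370.0, 4557 and 7021 at 35 days (adjusted p = 0.00248 for a log2 change of -1.35, SE 0.22). Col6a2 had 3042, 5302, 3656 and 3807 at 125 days, against 6455, 8617, 5578 and 7920.0 at 35 days (adjusted p = 0.0106 for a log2 change of -0.86, SE 0.18). Neither chain overlapped between ages. Col6a3, the largest chain, had 623, 1148, 642 and 756 at 125 days, against 1867, 2269, 907 and 2552 at 35 days (adjusted p = 0.0249 for a log2 change of -1.20, SE 0.31), and 125-day replicate 2 exceeded 35-day replicate 3. The call was lost without 125-day library 1, 3 or 4 or 35-day library 1, 2 or 4 (adjusted p from 0.0617 to 0.0783). Col6a4, Col6a5 and Col6a6 encode alternatives to the third chain and are neighbours in the genome annotation. Col6a4 was scarce, with 2.03, 9.77, 6.30 and 5.87 at 125 days, against 24.3, 21.7, 27.2 and 36.1 at 35 days, and it entered only through the younger libraries. Col6a6 had 30.5, 48.9, 36.6 and 49.9 at 125 days, against 87.6, 127, 61.0 and 141 at 35 days (adjusted p = 0.014 for a log2 change of -1.26, SE 0.29). Col6a6 was lower without overlap, whereas in Col6a4 the lack of overlap follows from how it entered. Col6a5 had 320.0, 626, 564 and 446 at 125 days, against 282, 380.3, 165 and 449 at 35 days (adjusted p = 0.174 for a log2 change of 0.66, SE 0.31), the opposite sign to the other collagen VI genes, and did not pass.

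The multiplexins are basement membrane collagens with broken triple helices. Col15a1, found at the outer face of vascular basement membranes, had 1576, 3056, 1555 and 1933 at 125 days, against 4199.8, 6398, 3422 and 5638 at 35 days (adjusted p = 0.00624 for a log2 change of -1.29, SE 0.25), without overlap. Col18a1, the precursor gene of endostatin, had 4064, 8203, 4941 and 4836 at 125 days, against 5245, 7537, 4898 and 7728 at 35 days (adjusted p = 0.536 for a log2 change of -0.23, SE 0.23), and the ages overlapped. Both passed as lower when 35-day replicate 3 and 125-day replicate 2 were left out together, Col18a1 at log2 change -0.55, adjusted p = 0.0136. Anchoring fibril collagen VII, which fastens epithelial basement membranes to the tissue beneath, was scarce. Col7a1 had 42.7, 53.8, 36.6 and 53.8 at 125 days, against 63.3, 83.7, 122 and 139 at 35 days (adjusted p = 0.0214 for a log2 change of -1.06, SE 0.27), without overlap, but the call was lost without 125-day library 1 or 3 or 35-day library 4 (adjusted p from 0.051 to 0.0669) and with the anterior lobe covariate (log2 change -0.80, adjusted p = 0.155).

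Transmembrane collagens are anchored in the cell surface. Col17a1, of hemidesmosomes, had 43.7, 88.9, 58.0 and 51.8 at 125 days, against 141, 173, 99.2 and 138 at 35 days (adjusted p = 0.00919 for a log2 change of -1.19, SE 0.25), and the ages did not overlap. Col23a1 had 13962, 26285, 18542 and 16882 at 125 days, against 32992, 36002, 18208 and 26556 at 35 days (adjusted p = 0.131 for a log2 change of -0.58, SE 0.24). In 125-day replicates 2 and 3 it exceeded 35-day replicate 3, and the gene passed without 35-day library 3 (adjusted p = 0.0133) and with the covariate (log2 change -1.05, adjusted p = 0.0204). Col13a1, which takes part in the neuromuscular junction, had 1438, 2775, 1952 and 1865 at 125 days, against 1867, 2692, 2398 and 2419 at 35 days (adjusted p = 0.399 for a log2 change of -0.25, SE 0.19).

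Fibril-associated collagens with interrupted triple helices (FACIT) decorate the surface of fibrils. Only Col9a2 of 9 was called lower, against 8.87% of all genes, although all 9 log2 changes were negative, from -0.82 to -0.08. Without 35-day replicate 3 the count was 4, against 14.8% of all genes. It was 2 without 125-day replicate 2 or 35-day replicate 1. Without 125-day replicate 1, 3 or 4 or 35-day replicate 4 it was 0. Collagen IX coats cartilage fibrils. Col9a2 had 679.6, 1297, 951 and 807 at 125 days, against 1105, 1655, 1916 and 1495 at 35 days (adjusted p = 0.0400 for a log2 change of -0.74, SE 0.21), overlapped between ages, and lost its call without 125-day library 1, 3 or 4 or 35-day library 2 or 4 (adjusted p from 0.073 to 0.113), with no intensity trend (adjusted p = 0.0647) and with the covariate (log2 change -0.56, adjusted p = 0.214). The partner chains Col9a1 and Col9a3 averaged 21.1 ± 2.48 at 125 days, against 25.1 ± 12.3 at 35 days and 4189 ± 1396 at 125 days, against 4425 ± 513 at 35 days, with log2 changes of -0.08, SE 0.40 and -0.13, SE 0.20. Col16a1 had 437, 1042, 584 and 749.8 at 125 days, against 1076, 879, 1591 and 1295 at 35 days (adjusted p = 0.0563 for a log2 change of -0.82, SE 0.26). It passed without 125-day library 2 or 35-day library 2 (adjusted p from 0.0176 to 0.0496). With all libraries kept it passed only with library weights and in DESeq2 (adjusted p = 0.0203). Col12a1, of dense connective tissue, had 1082, 1208, 1058 and 1058 at 125 days, against 2045, 2045, 968 and 2084 at 35 days (adjusted p = 0.0837 for a log2 change of -0.63, SE 0.23). Apart from 35-day replicate 3 its ages were far apart, and it passed without 35-day library 3 (adjusted p = 2.50e-05). With all libraries kept, it passed only in edgeR (adjusted p = 0.0478), in DESeq2 (adjusted p = 0.0126), with library weights and with the covariate (adjusted p = 0.00914). Col19a1, which some neurons of the mouse brain express, showed the same arrangement, with 1709, 1809, 2200.1 and 1638 at 125 days, against 3754, 3253, 1362 and 2908 at 35 days (adjusted p = 0.218 for a log2 change of -0.53, SE 0.27). It passed without 35-day library 3 (adjusted p = 6.77e-04), and with all libraries kept only with library weights and with the covariate. Col20a1 had 175, 277, 198 and 182 at 125 days, against 365, 287, 175 and 304 at 35 days (adjusted p = 0.253 for a log2 change of -0.42, SE 0.23). It passed without 35-day library 3 (adjusted p = 0.0200), and with all libraries kept only with library weights and with the covariate. Col22a1, of tissue junctions such as that of muscle and tendon, had 111, 120.2, 105 and 104 at 125 days, against 80.3, 211, 270.2 and 216 at 35 days (adjusted p = 0.176 for a log2 change of -0.69, SE 0.32). It passed without 35-day library 1 (adjusted p = 0.00278), and with all libraries kept only with library weights and in DESeq2. In Col16a1, Col20a1 and Col22a1 the ages overlapped, and in Col22a1 35-day replicate 1 was the lowest library of all. Col14a1 averaged 148 ± 42.3 at 125 days, against 214 ± 58.2 at 35 days (adjusted p = 0.164 for a log2 change of -0.54, SE 0.24).

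The network-forming and remaining chains were mixed. Collagen VIII forms lattices beneath endothelia, and neither of its chains passed. Col8a1 had 1342, 1640.1, 1461 and 1303 at 125 days, against 1455, 1906, 863 and 1695 at 35 days (adjusted p = 0.978 for a log2 change of 0.01, SE 0.22). Col8a2 had 479, 588, 632 and 625 at 125 days, against 360.3, 596, 474 and 519 at 35 days (adjusted p = 0.294 for a log2 change of 0.27, SE 0.16). Without 35-day replicate 3, whose value was the lowest of all, Col8a1 was on the negative side (log2 change -0.23, adjusted p = 0.137). Col10a1, of hypertrophic cartilage, was scarce, with 15.2, 23.5, 20.2 and 6.84 at 125 days, against 24.3, 37.2, 46.9 and 32.7 at 35 days (adjusted p = 0.0623 for a log2 change of -1.14, SE 0.37). It passed without 125-day library 2 (adjusted p = 0.0465). With all libraries kept it passed only with equal library totals, with library weights and in DESeq2 (adjusted p = 0.0232). The ages did not overlap. Col10a1 overlaps Nt5dc1 in the annotation. Whether their exons overlap is not known here, so reads of these genes may not be told apart. Col26a1, first described in testis and ovary of the mouse, was scarce, with 9.14, 6.84, 8.83 and 9.78 at 125 days, against 48.7, 81.6, 78.5 and 76.8 at 35 days. Each older library held fewer than 10, and the gene entered only through the younger ones. Col28a1, known from glial basement membranes of peripheral nerve in mice, had 723, 712, 683 and 899 at 125 days, against 565, 637, 513 and 812 at 35 days (adjusted p = 0.264 for a log2 change of 0.27, SE 0.15), and did not pass.

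In 4 of 7 pairs of partner chains the ratio within a library did not overlap between ages. The ratio of Col1a1 to Col1a2 within a library was 0.575, 0.657, 0.564 and 0.603 at 125 days, against 1.0001, 1.29, 1.18 and 1.30 at 35 days. That of Col4a1 to Col4a2 was 1.35, 1.41, 1.23 and 1.30 at 125 days, against 1.82, 1.66, 1.68 and 1.52 at 35 days. The ratio of Col6a1 to Col6a2 was 0.582, 0.641, 0.558 and 0.618 at 125 days, against 0.796, 0.855, 0.817 and 0.887 at 35 days. In each of these pairs the ratio was lower at 125 days than at 35 days, without overlap. It held in 125-day replicate 2 and 35-day replicate 3 as in their companions. Col5a1 to Col5a2 ran from 0.494 to 0.577 at 125 days, against 0.678 to 1.07 at 35 days, also without overlap. The ages overlapped for Col4a3 to Col4a4 (5.77 to 8.19 at 125 days and 7.15 to 9.29 at 35 days), Col4a5 to Col4a6 (2.06 to 2.42 and 2.18 to 2.71) and Col8a1 to Col8a2 (2.09 to 2.80 and 1.82 to 4.04). Counts are not corrected for transcript length, so a ratio is compared between ages and not read as chain stoichiometry, and these differences were not tested.

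**Figure D3:**
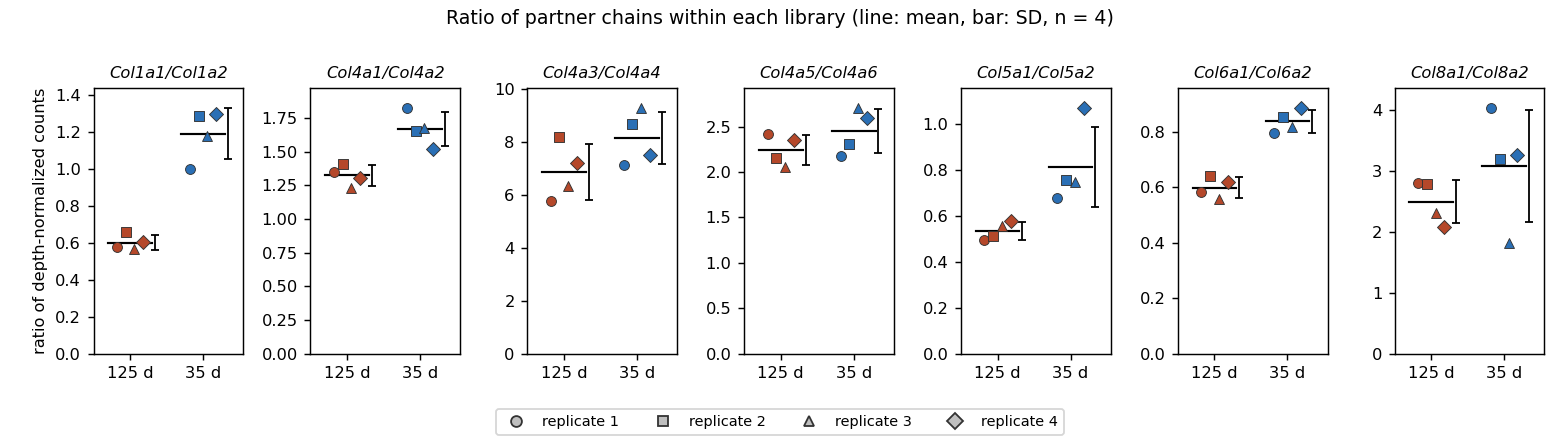
Ratio of the depth-normalized counts of 7 pairs of partner chains in each library, 125 days on the left and 35 days on the right, with the symbol giving the replicate, the line the mean and the bar the SD (n = 4 per age). The pairs Col1a1/Col1a2, Col4a1/Col4a2, Col5a1/Col5a2 and Col6a1/Col6a2 do not overlap between ages, and the other pairs do.

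Of the genes for enzymes and the chaperone, 2 of 7 fell, against 8.87% of all genes, and the median log2 change was -0.43. The count was 3 without 35-day replicate 3 or 125-day replicate 2, 2 without 35-day replicate 4 and 1 without any other library. Serpinh1, for the procollagen chaperone HSP47, had 4441, 7391, 5303 and 5409.8 at 125 days, against 9143, 11164, 11206 and 9726 at 35 days (adjusted p = 0.0033 for a log2 change of -0.89, SE 0.15), without overlap. The lysyl hydroxylase gene Plod2, whose product acts on the telopeptides that form stable cross-links, had 1032, 1983, 1426 and 1269 at 125 days, against 2323, 2488, 1970.1 and 2023 at 35 days (adjusted p = 0.0308 for a log2 change of -0.66, SE 0.18). Its ages overlapped through replicate 2 of 125 days and replicate 3 of 35 days, and the call was lost without 125-day library 1, 3 or 4 or 35-day library 1 or 2 (adjusted p from 0.072 to 0.0915) and with no intensity trend (log2 change -0.66, adjusted p = 0.053). Plod1, a lysyl hydroxylase of the helix, had 1704, 2307, 1832 and 1861 at 125 days, against 2494, 3042, 2105 and 2744 at 35 days (adjusted p = 0.0534 for a log2 change of -0.43, SE 0.13). It passed without 125-day library 2 or 35-day library 3 (adjusted p from 0.00576 to 0.0292), and with the covariate (log2 change -0.60, adjusted p = 0.0398). Plod3, which also adds sugars, had 2447, 2736, 2421 and 2642 at 125 days, against 2603, 2878, 2799 and 2909.6 at 35 days (adjusted p = 0.329 for a log2 change of -0.13, SE 0.08). For the catalytic subunits of prolyl 4-hydroxylase no test was passed: P4ha1 averaged 3048 ± 205 at 125 days, against 2722 ± 307 at 35 days (adjusted p = 0.2996 for a log2 change of 0.17, SE 0.10), P4ha2 926 ± 37.8 at 125 days, against 879 ± 105 at 35 days (adjusted p = 0.633 for a log2 change of 0.08, SE 0.10) and P4ha3, at low counts, 27.4 ± 13.6 at 125 days, against 40.1 ± 9.22 at 35 days (adjusted p = 0.239 for a log2 change of -0.63, SE 0.34).

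Other genes that make, cut, cross-link and bind collagen were examined in 6 lists chosen by function, with earlier results of these data known. Of 55 genes tested 19 were lower and 1 higher, against 8.87% lower and 8.85% higher of all genes. Without 35-day replicate 3 these were 25 and 1, against 14.8% and 15.9% of all genes. Without 125-day replicate 2 they were 20 and 1, against 8.52% and 7.42%. Leaving out any other library gave 13 to 18 lower and 1 higher, against 5.76% to 8.03% of all genes lower. The median log2 change of the 55 genes was -0.34. Of 7 cross-linking genes 4 were lower. Lox, for the lysyl oxidase that starts cross-links in fibrils, had 385, 625, 309 and 545 at 125 days, against 1395, 2366, 1545 and 1261 at 35 days (adjusted p = 9.72e-04 for a log2 change of -1.83, SE 0.25). Loxl2, a related oxidase that cross-links collagen IV, had 158, 246, 168 and 199 at 125 days, against 472, 592, 454 and 603 at 35 days (adjusted p = 3.53e-04 for a log2 change of -1.46, SE 0.17). Pxdn, the peroxidase that forms sulfilimine bonds in collagen IV, had 823, 1449, 982 and 1034 at 125 days, against 2347, 3011, 1587 and 2739.7 at 35 days (adjusted p = 0.00556 for a log2 change of -1.17, SE 0.22). None of these overlapped between ages. Of 7 genes for propeptide cleavage 3 were lower (2 to 4 without 1 library). Adamts2, for the N-propeptidase of collagen I, had 330.1, 359.7, 364 and 369.5 at 125 days, against 752, 805, 613 and 1015 at 35 days (adjusted p = 7.04e-04 for a log2 change of -1.14, SE 0.15). Pcolce, an enhancer of the C-propeptidase, had 492, 817, 498 and 571 at 125 days, against 914, 1461, 2246 and 1300.4 at 35 days (adjusted p = 0.00817 for a log2 change of -1.27, SE 0.26). This call was lost with the covariate (log2 change -0.89, adjusted p = 0.079). The C-propeptidase gene Bmp1 had 1082, 1779, 1358 and 1365 at 125 days, against 2052, 2453, 1855 and 2186 at 35 days (adjusted p = 0.0176 for a log2 change of -0.63, SE 0.15). This call was lost without 125-day library 3 or 4 or 35-day library 2 (adjusted p from 0.0521 to 0.0538). Ages did not overlap in these genes either.

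For steps inside the cell, 4 of 22 genes were called (18.2%), near the 17.7% of all genes tested. Of 13 genes for modification and folding in the endoplasmic reticulum 2 were lower and 1 higher, the median log2 change being -0.02, and of 9 genes for export 1 was lower, with a median of 0.00. The prolyl 3-hydroxylase gene P3h1 had 1179, 1373, 1343 and 1197 at 125 days, against 1660.4, 1932, 1904 and 1693 at 35 days (adjusted p = 0.00622 for a log2 change of -0.50, SE 0.10). Its relative P3h2 was the gene of these lists that rose, with 503, 826, 672 and 585 at 125 days, against 281, 287, 197 and 282 at 35 days (adjusted p = 0.00107 for a log2 change of 1.29, SE 0.18). The prolyl isomerase gene Fkbp7 had 609, 663, 642 and 547 at 125 days, against 917, 846, 773 and 771 at 35 days (adjusted p = 0.0193 for a log2 change of -0.43, SE 0.10). This call was lost without 125-day library 1 or 4 or 35-day library 1 or 2 (adjusted p from 0.0526 to 0.0700). Kdelr3, for a receptor that returns chaperones to the endoplasmic reticulum, had 749, 715, 642 and 722 at 125 days, against 1570.3, 1703, 1638 and 1335 at 35 days (adjusted p = 9.02e-05 for a log2 change of -1.14, SE 0.10). In each of these genes the ages were apart. P4hb, the second subunit of prolyl 4-hydroxylase, averaged 18095 ± 632 at 125 days, against 18783 ± 1801 at 35 days (adjusted p = 0.781 for a log2 change of -0.05, SE 0.10). A difference between these lists and the extracellular ones was not tested.

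Of 10 collagen receptor genes 3 were lower, against 8.87% of all genes. The count was 5 without 35-day replicate 3, 3 without 125-day replicate 2 and 1 or 2 without any other library. Itga10, for a collagen-binding integrin of cartilage, had 11.2, 17.6, 16.4 and 17.6 at 125 days, against 31.7, 32.0, 53.4 and 37.8 at 35 days (adjusted p = 0.00967 for a log2 change of -1.24, SE 0.26). This call was lost with the covariate (log2 change -1.01, adjusted p = 0.0878). Itgb1, the shared beta subunit of the collagen-binding integrins, had 12515, 12728, 12085 and 11962 at 125 days, against 15985, 16947, 14836 and 14880.5 at 35 days (adjusted p = 0.0262 for a log2 change of -0.34, SE 0.09). This call was lost without 125-day library 1, 3 or 4 or 35-day library 1 or 2 (adjusted p from 0.0644 to 0.0944), with no filter (adjusted p = 0.0533), with the replicate block (adjusted p = 0.066) and with the covariate (log2 change -0.39, adjusted p = 0.0594). Lair1, an inhibitory collagen receptor of leukocytes, had 24.4, 47.9, 35.3 and 28.3 at 125 days, against 69.4, 92.0, 43.6 and 77.3 at 35 days (adjusted p = 0.0327 for a log2 change of -1.03, SE 0.28). This call was lost without 125-day library 1, 3 or 4 or 35-day library 1, 2 or 4 (adjusted p from 0.0699 to 0.0958) and with no filter (adjusted p = 0.0502). Only in Lair1 among these receptor genes did the ages overlap. The discoidin receptor genes Ddr1 and Ddr2 did not pass, with log2 changes of 0.19, SE 0.11 and -0.05, SE 0.21. Of 9 genes for fibril partners 6 were lower, against 8.87% of all genes. The count was 7 without 35-day replicate 3, 5 without 35-day replicate 4 or 125-day replicate 2, and 4 without any other library. Fn1 and Dcn were the called genes that lost their call. Postn, for periostin, had 267, 206, 267 and 232 at 125 days, against 642, 796, 616 and 727 at 35 days. Sparc, a collagen-binding protein, had 14552, 22598, 15328 and 17066 at 125 days, against 44469, 51664, 46779.9 and 48021 at 35 days. Lum, for the fibril-spacing proteoglycan lumican, had 2111, 3433, 2069 and 2145 at 125 days, against 4787, 4957, 4737 and 4449 at 35 days. In each the ages were apart (Postn adjusted p = 6.80e-05 for a log2 change of -1.51, SE 0.13; Sparc adjusted p = 1.76e-04 for a log2 change of -1.48, SE 0.15; Lum adjusted p = 0.00222 for a log2 change of -0.99, SE 0.16).

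Markers of cell types that make collagen were also called lower in part, against 8.87% of all genes. These lists too were chosen with earlier results of these data known. Fibroblast markers were lower in 9 of 14 genes tested, with a summed depth-normalized count of 25638 to 36072 at 125 days and 36127 to 41350.0 at 35 days, and endothelial markers in 9 of 14, with sums of 16402 to 31782 and 26594 to 36151. Mural markers (pericytes and smooth muscle) were lower in 10 of 13 and higher in 1, with sums of 12108 to 17447 at 125 days and 13942 to 23134 at 35 days. Without 125-day replicate 3 these counts were 4 fibroblast, 5 endothelial and 5 mural genes, against 5.76% of all genes. They ran from 4 to 6 in each list without 125-day replicate 1, 3 or 4 or 35-day replicate 1 or 2. Without 35-day replicate 4, 8 fibroblast, 6 endothelial and 6 mural genes were lower. The mural gene that was higher, Myh11, kept its call only without 35-day replicate 3 or 4. Dcn and Lum stand in both the fibroblast and the fibril partner lists. Ratios to these sums are given for some collagen genes, chosen with their changes known, and were not tested. Col1a1 divided by the fibroblast marker sum ran from 0.127 to 0.150 at 125 days and 0.313 to 0.653 at 35 days, and Col3a1 was 0.199 to 0.246 and 0.450 to 0.700. Col4a1 divided by the endothelial sum lay between 0.294 and 0.328 at 125 days, against 0.532 to 0.731 at 35 days, and by the mural sum 0.401 to 0.597 and 0.912 to 1.14. None of these ratios overlapped between ages, with 125-day replicate 2 and 35-day replicate 3 included. The mural sum holds Myh11, with 4458 to 4964 at 125 days and 1611 to 3590 at 35 days, which widens the gap of the mural ratio. The endothelial sum holds Flt1 and Kdr, which did not pass (log2 changes of -0.08 and -0.30). The ratios thus depend on the makeup of each list. Col15a1 divided by the endothelial sum ran from 0.0878 to 0.0962 at 125 days, against 0.129 to 0.177 at 35 days, whereas Col18a1 was 0.220 to 0.295 and 0.177 to 0.235, which overlapped.

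**Figure D4:**
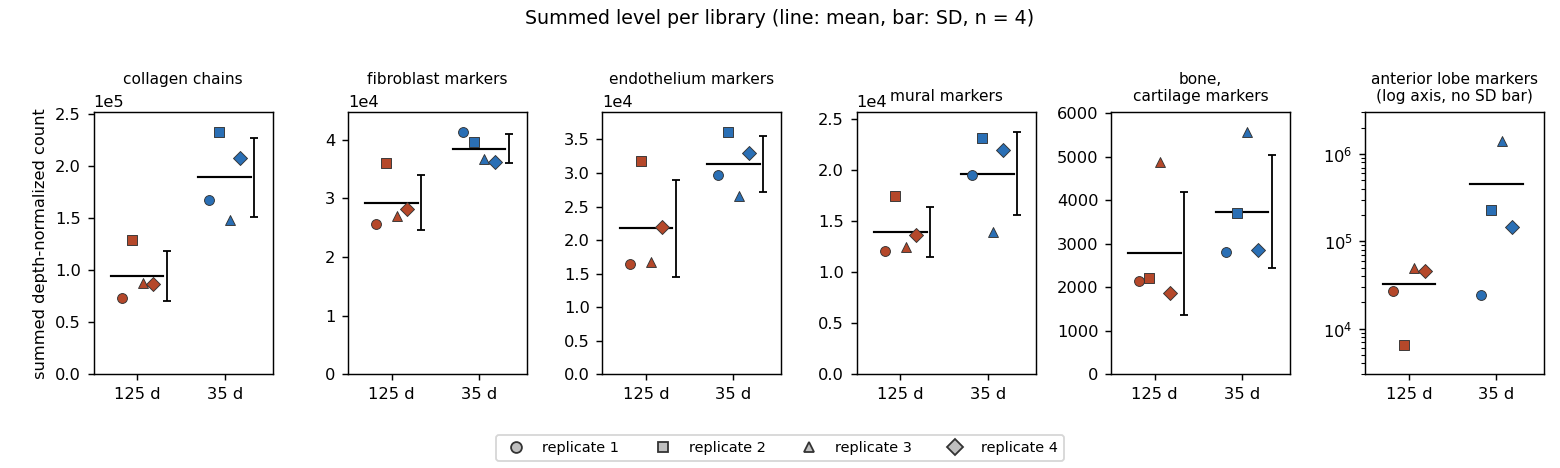
Summed depth-normalized count per library of the 43 collagen chain genes and of 5 marker lists, 125 days on the left and 35 days on the right, with the symbol giving the replicate, the line the mean and the bar the SD (n = 4 per age; the anterior lobe panel has a log axis and no SD bar). In the collagen, endothelial, mural and fibroblast panels replicate 2 is the highest 125-day library, and 35-day replicate 3 has the highest anterior lobe sum (1394300).

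Bone and cartilage genes were examined because collagens I, II, IX, X and XI are made there and the pituitary lies in a bony fossa. Their sums were 1864 to 4887 at 125 days and 2805 to 5576 at 35 days. The osteoblast genes Ibsp and Bglap passed the filter only through the 35-day libraries and are given with no test. Ibsp had 4.06, 1.95, 2.52 and 6.84 at 125 days, against 70.6, 131, 214 and 95.4 at 35 days. Bglap had 4.06, 7.82, 8.83 and 5.87 at 125 days, against 12.2, 67.2, 202 and 85.8 at 35 days. That the ages did not overlap in these genes follows from how they passed the filter. In both, 35-day replicate 3 was the highest library. Among the other markers, Dmp1, Phex, Snorc and Cnmd were called lower. Dmp1 and Snorc lost the call with the covariate, Phex lost it without 35-day replicate 2, and Snorc without 125-day replicate 1, 2 or 4 or 35-day replicate 1, 2 or 4. The osteoblast genes Sp7, Alpl, Runx2 and Spp1 did not pass, with log2 changes of -1.19, SE 0.46, -0.21, SE 0.13, -0.16, SE 0.18 and -0.46, SE 0.70, nor did Chad and Omd. The cartilage gene Matn1 was near the detection limit, with 2.03, 0.00, 0.00 and 0.00 at 125 days, against 2.43, 1.03, 2.18 and 3.95 at 35 days. Erythroid markers were lower in 5 of 5 genes, against 8.87% of all genes. The count was 4 without any 1 library other than 35-day replicate 3, against 5.76% to 8.52%. Erythroid sums were 883 to 1031 at 125 days and 1417 to 1879.55 at 35 days. Intermediate lobe genes, which are not of the neural lobe, summed to 3615990.0 to 5345610.0 at 125 days and 2016420.0 to 3764260.0 at 35 days. Of these genes 1 of 5 was higher, against 8.85% of all genes (0 without 125-day replicate 1 or 4). Anterior lobe genes were lower in 4 of 11, against 8.87% of all genes (9 without 35-day replicate 1, against 6.9%). Pituicyte genes were lower in 3 of 11 and higher in 1, against 8.87% and 8.85% of all genes. Without 35-day replicate 3 they were 6 and 1, against 14.8% and 15.9%. Without 125-day replicate 2 they were 5 and 1, against 8.52% and 7.42%. Schwann cell and meningeal genes were lower in 1 of 9 and higher in 2, against 8.87% and 8.85%. Of these genes 0 were higher without 125-day replicate 1, 3 or 4 or 35-day replicate 1 or 2. Their sums were 20291 to 35625 at 125 days and 15789 to 22823 at 35 days. The part of these cells in the collagen results was not tested.

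Members also varied together within an age. In 38 of 50 members 125-day replicate 2 was the highest library of its age, against 27.6% of all genes tested, and 125-day replicate 1 was the lowest in 33, against 27.5%. At 35 days, replicate 3 was the lowest library in 25 members, against 39.9% of all genes tested, and the highest in 12, against 38.7%. Replicate 1 was the lowest in 22, against 23.3%. Replicate 2 was the highest in 24, against 19.6%. These counts describe 8 libraries, and members share the depth and dissection of each.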

How the data were processed

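RNA was sequenced from 4 libraries of 125-day and 4 of 35-day rats, grouped by the sample titles. The deposited signal values are gene read counts that the authors scaled by 1 size factor per library, as the values show: all (100%) gave whole reads within 0.001. The authors' 2 mean columns were not used. The submitters' processing notes name Trimmomatic 0.39, HISAT2 2.2.1, SAMtools 1.13, featureCounts, Subread 2.0.1, DESeq2 1.34.0 and rn7. Neither the annotation nor strandedness is given in the sources used here. RefSeq's GRCr8 table, another build, gave promoter windows and overlaps (23 of 50 members overlap another gene). Of these, 8 overlap a protein-coding gene: Col1a1, Col4a6, Col6a4, Col6a5, Col6a6, Col10a1, Col20a1 and Plod3.

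limma 3.58.1 (R 4.3.3) with an intensity trend was run on log2(value + 1) of 17919 genes that reached 10 in 4 or more of 8 libraries, two-sided, with Benjamini-Hochberg adjustment over all of them. No 2 libraries looked like copies, and no batch was labelled. Alternatives were other pseudocounts, filters and scalings, no trend, library weights, edgeR 4.0.16 (3170 genes called) and DESeq2 1.42.0 (4196) on the recovered reads, a replicate block, an anterior lobe covariate and leaving out each library. Leaving out 35-day replicate 3 with 125-day replicate 2 was chosen after seeing the data. Members and lists were chosen with earlier results of these data known. Per-library values are given for Col1a1, Col4a1, the 3 members of lowest adjusted p per class, members called higher and those whose call changes without 1 library, and in each pathway list for up to 3 called genes and any called against its direction. Other genes with values were named after these were seen.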

Additional observations from a re-analysis of the deposited data

Results flagged for a closer look

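In 132 groups of 4 libraries, 5 had a library that stood apart from the others of its age, and chance gives about 1 in 20. Col12a1 had such a library at both ages. In 125-day replicate 2 it had 1208 depth-normalized counts, against 1058 to 1082 in the other 125-day libraries, and in 35-day replicate 3 it had 967.6, against 2045 to 2084 in the other 35-day libraries. Col26a1 had 48.7 in 35-day replicate 1, against 76.8 to 81.6. Among the pathway genes, P3h2 had 197 in 35-day replicate 3, against 281 to 287, and Lum had 3433 in 125-day replicate 2, against 2069 to 2145. Of these 5 libraries 2 were 125-day replicate 2 and 2 were 35-day replicate 3.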

How the results depend on the processing

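Of the collagen genes, 20 were lower and 1 higher at 125 days, and these counts stayed within 1.5 times under every listed alternative that kept all libraries except library weights (39 lower, 40 called). Leaving out 1 library gave 15 to 27 lower, and leaving out 35-day replicate 3 with 125-day replicate 2 gave 33 lower and 34 called. Over all genes tested, 1589 lower and 1585 higher became 3919 and 3973 with library weights (7892 called) and 3041 and 3077 without both of those libraries (6118 called). Without 1 library they ran from 1032 to 2649 lower, 860 to 2846 higher and 1894 to 5495 called. Scaled to equal library totals they were 1997 and 1179. Of the pathway genes, 19 lower became 13 to 25 without 1 library; 32 were lower and 2 higher (34 called) with library weights, and 29 were lower without both libraries. With the anterior lobe covariate 24 collagen genes were lower and 1 higher. The cause of these shifts was not tested.

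With the replicate block, 22 collagen genes were lower and 1 higher, and 1428 and 1290 of all genes. Deviations of same-numbered libraries from their group means correlated at -0.12 to 0.17, so the numbers were not taken as pairs.

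Signs turned only in members that did not pass: Col24a1 with the covariate (0.54); Col4a4 without 1 library (-0.25 to 0.063); Col9a3 likewise (-0.33 to 0.031). Col9a1 ran from -0.50 to 0.16 without 1 library, with 0.81 under the covariate and 0.20 without both libraries. Col8a1 was at -0.012 with upper-quartile scaling, -0.053 with equal library totals, -0.34 with library weights (adjusted p = 0.0217), -0.046 in edgeR, -0.048 in DESeq2, -0.33 with the covariate, -0.29 without both libraries (adjusted p = 0.0469) and -0.23 to 0.15 without 1 library.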
